A study of Mus musculus with 14 samples.

Results

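The translation initiation factors are the proteins that bring the ribosome, the initiator tRNA and the mRNA together at the start codon. Their genes were taken as every symbol of the deposited table that begins with Eif and a digit from 1 to 6, without the eIF2 kinases (the Eif2ak genes) and without the sex-linked Eif2s3x and Eif2s3y. The rule gave 49 of 24015 genes. Eif3j1 and Eif3j2 share reads and were added together, which left 48 members of 24014. Of these, 47 passed the filter on low counts. The exception was Eif4e1b, a relative of the cap-binding protein eIF4E that is known from oocytes. It had a count of 0 in all 14 libraries, which allows at most 0.0502 CPM (counts scaled to the library total) in the shallowest library when 3 counts are taken as the limit.

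The cells were mouse embryonic fibroblasts labelled as strain 129s2, prepared at embryonic day 14.5 and used at passages 3 to 4. They were kept for 18 hours in medium without glucose (GS) or in normal medium (NT). Libraries of SirT7-/- cells numbered 3 after starvation (KO-GS) and 4 in normal medium (KO-NT), and those of wild-type cells 3 (WT-GS) and 4 (WT-NT). SirT7 is a deacylase of the NAD-dependent sirtuin family. The labels do not describe its allele, nor do they say that replicates came from separate embryos or cultures, so the spread between libraries may be technical.

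Initiation starts when eIF2, carrying GTP and the initiator tRNA, joins the small ribosomal subunit with the help of eIF1, eIF1A, eIF5 and the large eIF3 complex. The mRNA is recruited through its cap by eIF4E, the scaffold eIF4G and the helicase eIF4A, and the 4E-BP proteins block that step by holding eIF4E. In cells under stress, phosphorylated eIF2 inhibits its exchange factor eIF2B, which lowers general translation while a few mRNAs such as that of Atf4 are translated better.

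Library totals lay between 59788270 and 91607861 counts. Sirt7 was at 0.3005 to 1.415 CPM in the knockout and 16.9 to 23.1 CPM in the wild type. The 10 fibroblast markers summed to at least 24170 CPM in every library, and 7 epithelial markers to at most 13.2 CPM, with Krt5 at 0. Hspa5, a chaperone of the endoplasmic reticulum that glucose starvation induces, placed a pair of libraries against their labelled medium. It had 6251, 5654 and 1066 CPM in KO-GS 1 to 3, against 1556, 1437, 1457 and 6333 CPM in KO-NT 1 to 4, so KO-GS 3 and KO-NT 4 lay with the other medium. The comparisons that use them were also fitted without them.

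In wild-type cells, 3 of 6 members in scanning and start codon choice, and 7 of 13 eIF3 subunits, were higher after glucose starvation. Also higher were Eif2a, Eif2s2, Eif2b3, the helicase Eif4a2, its cofactor Eif4b and Eif4g2. The exchange factor subunit Eif2b4, the eIF4E inhibitor Eif4ebp2 and the joining factor Eif5b were lower. Of 47 members tested, 16 were higher (34%) and 3 lower (6.38%) in WT-GS by edgeR's quasi-likelihood test, at an adjusted p under 0.05. Over all 15665 genes tested, 17.2% were higher, 15.4% lower and 32.6% called in either direction. The median log2 change was 0.19 over the members and -0.02 over all genes. All WT-GS libraries lay above all WT-NT libraries in 18 members (38.3%, against 19.9% of all genes) and below them in 6 (12.8%, against 24.8%). The count of 19 calls was 12 without WT-GS 1 and 12 without WT-GS 3. No member was called lower when any 1 of the 3 WT-GS libraries was left out, and 8 were called lower without WT-NT 4. The share of all genes called in these fits was not counted, so the shifts cannot be set apart from changes in calls over all genes.

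**Figure D1:**
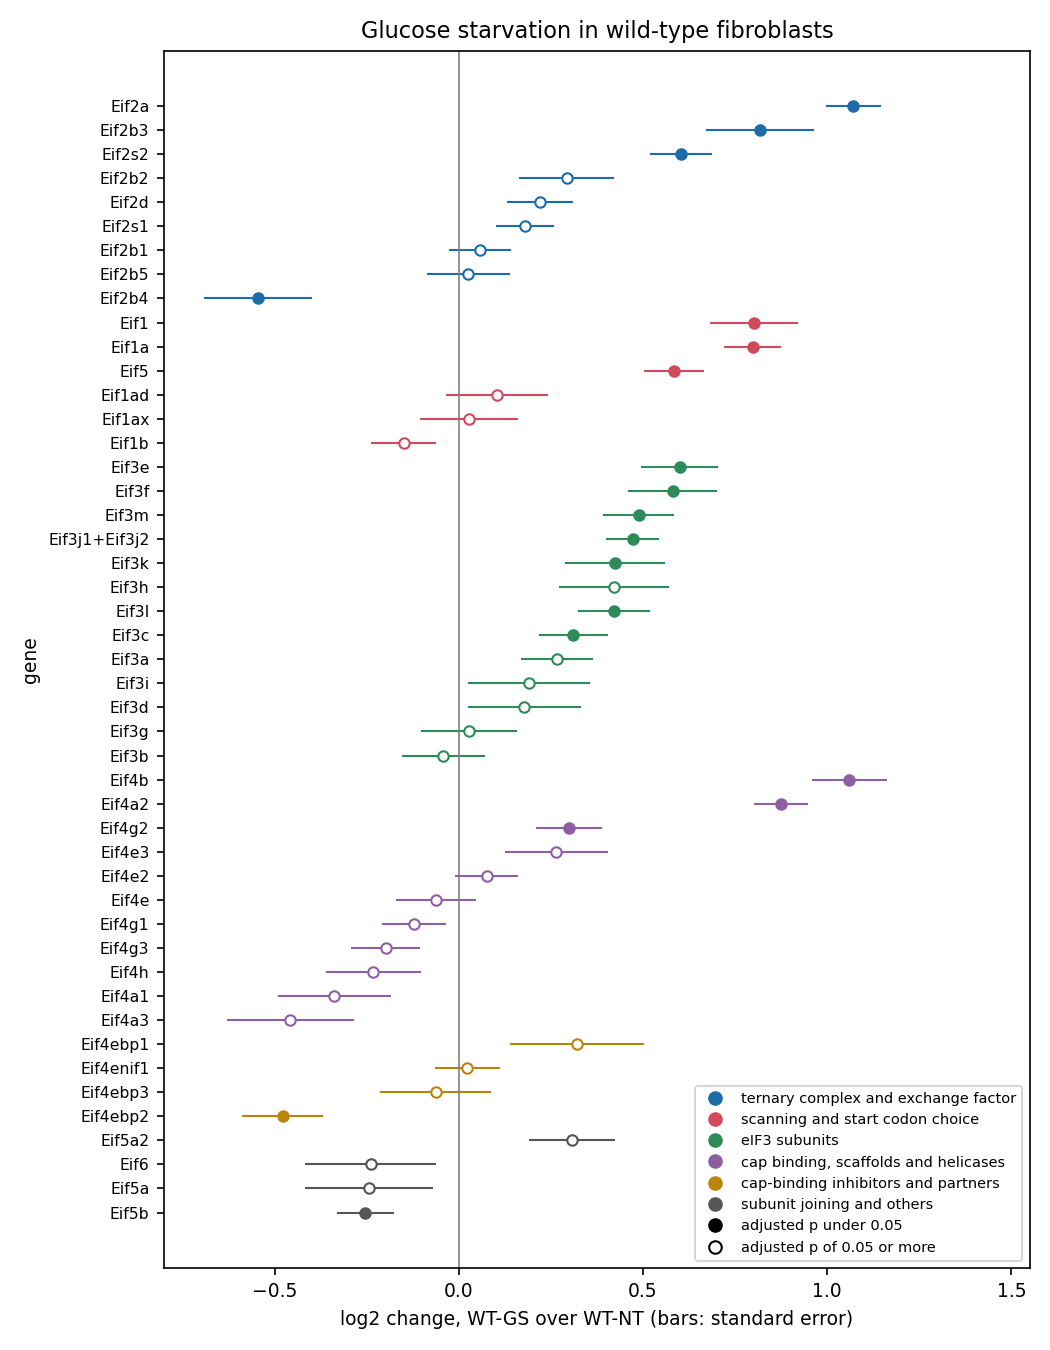
Log2 change of the 47 tested members in wild-type cells, WT-GS over WT-NT, on the horizontal axis, with standard error bars, ordered by role and then by size. Filled points passed an adjusted p of 0.05: those on the right run from 0.30 for Eif4g2 to 1.07 for Eif2a, and the 3 on the left are Eif2b4, Eif4ebp2 and Eif5b.

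The 250 bases before the annotated start are shown for the 3 members with the largest rises in wild type and for Eif2b4, which had the largest fall. They are RefSeq sequences on build GRCm38.p6, which is not the build the submitters named. The positions are chr3:58525571-58525820 for Eif2a, chr15:102073523-102073772 for Eif4b and chr16:23107218-23107467 for Eif4a2, all on the plus strand, and chr5:31193140-31193389 for Eif2b4 on the minus strand. Capitals mark matches on either strand to TGATGNAA (a core of the element bound by ATF4 with C/EBP proteins), CACGTG (the E-box) or CCAAT (the CCAAT box).
Eif2a: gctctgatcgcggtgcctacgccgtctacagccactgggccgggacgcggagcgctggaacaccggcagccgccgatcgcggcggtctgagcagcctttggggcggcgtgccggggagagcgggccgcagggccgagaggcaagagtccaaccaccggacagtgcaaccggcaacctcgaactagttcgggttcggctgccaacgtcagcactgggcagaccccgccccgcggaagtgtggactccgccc
Eif4b: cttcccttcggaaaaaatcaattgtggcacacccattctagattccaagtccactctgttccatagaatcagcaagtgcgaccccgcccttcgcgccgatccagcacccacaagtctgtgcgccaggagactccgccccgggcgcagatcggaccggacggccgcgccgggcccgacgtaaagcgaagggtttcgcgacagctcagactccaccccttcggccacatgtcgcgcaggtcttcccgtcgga
Eif4a2: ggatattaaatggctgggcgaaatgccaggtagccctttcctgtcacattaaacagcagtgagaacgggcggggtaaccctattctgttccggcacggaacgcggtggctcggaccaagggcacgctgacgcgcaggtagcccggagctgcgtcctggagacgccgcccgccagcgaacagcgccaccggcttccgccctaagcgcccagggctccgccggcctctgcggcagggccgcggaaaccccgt
Eif2b4: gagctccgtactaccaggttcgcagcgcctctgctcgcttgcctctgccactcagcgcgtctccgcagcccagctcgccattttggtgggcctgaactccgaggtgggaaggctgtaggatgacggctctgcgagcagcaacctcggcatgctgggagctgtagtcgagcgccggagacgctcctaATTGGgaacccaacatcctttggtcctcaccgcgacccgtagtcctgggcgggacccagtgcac
The single match in the 4 sequences is a CCAAT box in Eif2b4, read on the opposite strand. Their G and C content is 70.8% for Eif2a, 62.0% for Eif4b, 66.4% for Eif4a2 and 64.0% for Eif2b4, and the median is 62.4% over the 48 promoter entries of members, against 52.4% over all 32851 entries. An entry was found for 36 members. Counted by entry, TGATGNAA was in 0 of the 48, against 3.45% of all entries. CACGTG was in 11 of the 48 (22.9%), against 6.02% of all entries, and these belong to 9 members: Eif1b, Eif3f, Eif3k, Eif4a1, Eif4e, Eif4g1, Eif4h, Eif5a and Eif5a2. Of these 9, only Eif3f and Eif3k were called in wild type. CCAAT was in 12 of the 48 (25%), against 33.85% of all entries. The entries compared were not matched for G and C content, and some members have several entries. Whether these shares follow base composition was not tested.

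Among the genes that deliver the initiator tRNA, Eif2a changed most. It encodes eIF2A, a single-chain factor that can bring initiator tRNA to the ribosome and is not a subunit of eIF2. Eif2a had 137, 118 and 129.5 CPM in WT-GS, against 62.9, 64.1, 63.1 and 64.05 CPM in WT-NT. The groups were far apart and the WT-NT libraries nearly equal (log2 change 1.07, SE 0.07345, edgeR adjusted p = 0.000147). Eif2s2, the beta subunit of eIF2, had 499, 445 and 468 CPM in WT-GS, against 329.5, 334.5, 318 and 309.5 CPM in WT-NT, again with no overlap (log2 change 0.60, SE 0.0832, edgeR adjusted p = 0.00184). Eif2s1, the alpha subunit that the eIF2 kinases phosphorylate, averaged 165 ± 1.375 CPM in WT-GS and 151.5 ± 7.89 CPM in WT-NT (SD, n = 3 and 4). Its WT-GS libraries were all above its WT-NT libraries, but it did not pass the test (log2 change 0.18, SE 0.0788, edgeR adjusted p = 0.114). Eif2d, which can also deliver tRNA, had no overlap either and did not pass (log2 change 0.22, SE 0.0893, edgeR adjusted p = 0.0927).

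The 5 subunits of the exchange factor eIF2B did not change alike. Eif2b3, the gamma subunit, had 56.3, 64 and 57.8 CPM in WT-GS, against 38.6, 39.2, 35.2 and 27.2 CPM in WT-NT. It rose (log2 change 0.82, SE 0.147, edgeR adjusted p = 0.00552). Eif2b4, the delta subunit and part of the regulatory core that senses phosphorylated eIF2, had 20.1, 19 and 20.15 CPM in WT-GS, against 30.7, 36.7, 26.5 and 26.1 CPM in WT-NT. It fell (log2 change -0.54, SE 0.146, edgeR adjusted p = 0.02565), and the groups of both genes were fully separate. The other regulatory subunits had log2 changes of 0.06 (Eif2b1, SE 0.08465) and 0.29 (Eif2b2, SE 0.128), and the catalytic subunit Eif2b5 had 0.03 (SE 0.112). None of these passed the test with all libraries. Without WT-NT 2, Eif2b2 was called higher (log2 change 0.39, edgeR adjusted p = 0.0276).

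Of 6 members in scanning and start codon choice, with their relatives, 3 rose and none fell. Eif1, which keeps the ribosome scanning until the start codon is found, had 565, 493 and 559 CPM in WT-GS, against 318.5, 374, 306.5 and 289.7 CPM in WT-NT (log2 change 0.80, SE 0.119, edgeR adjusted p = 0.00253). Eif1a, a gene for the scanning factor eIF1A, had 422, 380.2 and 386 CPM in WT-GS, against 232, 240.1, 226 and 252 CPM in WT-NT (log2 change 0.80, SE 0.0765, edgeR adjusted p = 0.000463). Eif5, the GTPase-activating partner of eIF2, averaged 545 ± 24.6 CPM in WT-GS and 379 ± 15.8 CPM in WT-NT (SD, n = 3 and 4), with a log2 change of 0.58 (SE 0.0816). Starved libraries were above all unstarved ones for each of these 3 genes. Their paralogues gave other values, with -0.15 for Eif1b (SE 0.0886) and 0.03 for the X-linked Eif1ax (SE 0.134), and neither passed the test. The count ratio of Eif1 to Eif1b was 21.6 to 23.2 in WT-GS libraries and 10.4 to 12.5 in WT-NT libraries, and that of Eif1a to Eif1ax was 4.95 to 5.47 in WT-GS and 2.57 to 3.91 in WT-NT. Close paralogues can share reads, and how the counting divided such reads is not given in the sources used here.

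The eIF3 complex, which bridges the small ribosomal subunit and eIF4G, was measured as 13 subunits. Of these, 7 rose and none fell, with a median log2 change of 0.42. Changes were above 0 for 12 subunits, as for 33 of all 47 members and 7595 of all 15665 genes. Scaled by library size alone, they were above 0 for 11 subunits. The count of 7 called subunits was 4 without WT-GS 1 and 4 without WT-GS 3, where Eif3c, Eif3k and Eif3l no longer passed. Eif3e had 348, 302 and 335 CPM in WT-GS, against 229, 248.6, 222 and 202 CPM in WT-NT (log2 change 0.60, SE 0.105, edgeR adjusted p = 0.0049). Eif3f had 207, 191 and 221 CPM in WT-GS, against 139.6, 170.2, 134 and 131 CPM in WT-NT (log2 change 0.58, SE 0.121, edgeR adjusted p = 0.0099). In both, every starved library was above every unstarved one. Eif3m, Eif3l, Eif3k and Eif3c rose by 0.49, 0.42, 0.42 and 0.31 on the log2 scale, and Eif3j1 and Eif3j2 together by 0.47. Eif3h had a change as large as that of Eif3l but a larger error (log2 change 0.42, SE 0.15, edgeR adjusted p = 0.0648). Without WT-NT 2, Eif3h was called higher (log2 change 0.54, edgeR adjusted p = 0.0165). Other subunits were nearer 0, with -0.04 for Eif3b (SE 0.113), 0.03 for Eif3g (SE 0.13), 0.18 for Eif3d (SE 0.154) and 0.19 for Eif3i (SE 0.166), none of which passed. Eif3a, the largest subunit, had 799, 826 and 758.5 CPM in WT-GS, against 753, 605, 702 and 694 CPM in WT-NT. Its groups were separate by a small gap between WT-GS 3 and WT-NT 1 (log2 change 0.27, SE 0.0974, edgeR adjusted p = 0.0695). The 13 subunits summed to 3525, 3406 and 3568 CPM in WT-GS, against 3048, 3122, 2824 and 2670 CPM in WT-NT.

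Eif3j1 and Eif3j2 have coding sequences that are the same at all 786 aligned bases in GENCODE vM21, apart from 6 bases present in one alone, and the Eif3j2 transcript of 2379 bases is 99.4% identical to Eif3j1. Their counts in the table were divided in an all-or-none way. Eif3j2 held 99.4 to 99.75% of the sum in 6 libraries and 0% in 7, and WT-NT 3 stood between at 51.2%. The libraries listed almost wholly under Eif3j2 were KO-GS 1, KO-NT 1 to 3, WT-GS 1 and WT-NT 2, and so came from all 4 groups. The sum was even within groups, with 84.8, 85.7 and 78.8 CPM in WT-GS, against 65.8, 59.6, 62.7 and 61.7 CPM in WT-NT (log2 change 0.47, SE 0.07255, edgeR adjusted p = 0.0029). Kept apart, neither gene was called in wild type (edgeR adjusted p = 0.801 for Eif3j1 and 0.93 for Eif3j2). The level of each gene alone is uncertain, and only the sum is used.

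**Figure D2:**
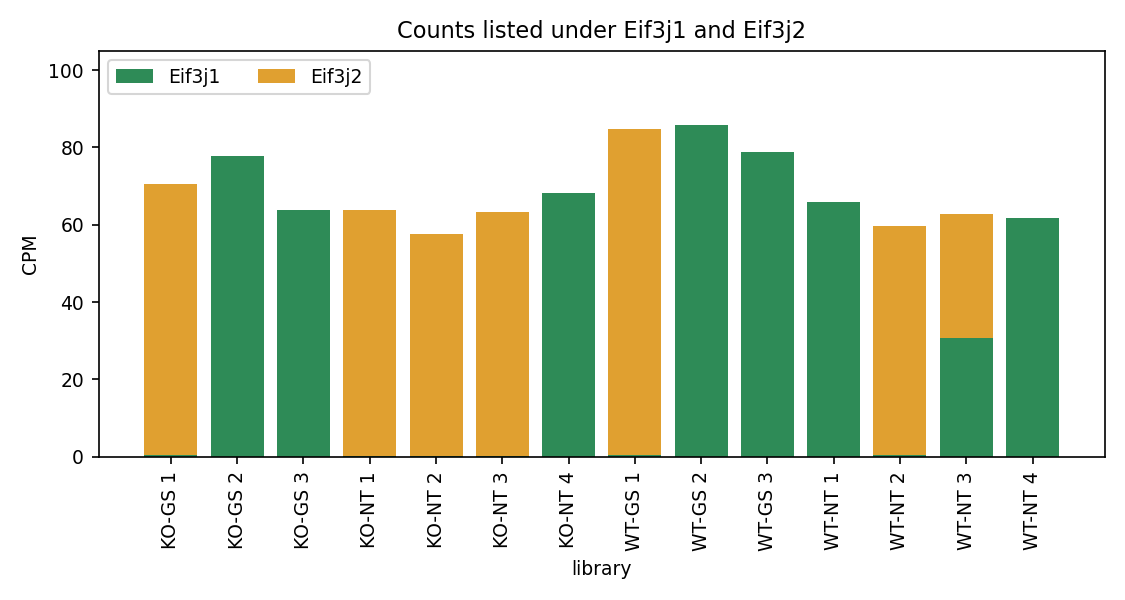
CPM listed under Eif3j1 and Eif3j2 in each library, stacked in 1 bar per library. Nearly all of each bar stands under 1 of the names except in WT-NT 3, and the full bars reach 57.7 to 85.7 CPM.

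Among the genes that recruit the mRNA, the helicase Eif4a2, its cofactor Eif4b and Eif4g2 rose. Eif4b had 958, 809 and 956 CPM in WT-GS, against 477, 463, 451 and 424 CPM in WT-NT (log2 change 1.06, SE 0.102, edgeR adjusted p = 0.000463). Eif4a2 had 543, 552 and 547 CPM in WT-GS, against 303, 313, 298 and 332 CPM in WT-NT (log2 change 0.87, SE 0.0741, edgeR adjusted p = 0.000323). Starved and unstarved libraries were widely separate for both. Eif4a1, the other cytoplasmic form of the helicase, had 703, 705 and 732 CPM in WT-GS, against 1043, 1051, 935 and 722 CPM in WT-NT. WT-NT 4 lay among the starved libraries, and Eif4a1 did not pass the test with it (log2 change -0.34, SE 0.153, edgeR adjusted p = 0.125) but did without it (log2 change -0.48, SE 0.0855, edgeR adjusted p = 0.0051). Without WT-NT 2, its highest library, the change was -0.27 (edgeR adjusted p = 0.214). The count ratio of Eif4a2 to Eif4a1 was 0.772, 0.7835 and 0.748 in WT-GS, against 0.291, 0.298, 0.319 and 0.459 in WT-NT. Per kilobase of the principal transcript in GENCODE vM21, the level of Eif4a2 was 248 ± 2.06 CPM in WT-GS and 141 ± 6.73 CPM in WT-NT, and that of Eif4a1 was 402 ± 9.12 CPM in WT-GS and 529 ± 86.4 CPM in WT-NT (SD, n = 3 and 4), so Eif4a1 was the more abundant in both media.

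The other cap-recruitment genes gave smaller values. Eif4e, the cap-binding protein, averaged 121 ± 4.61 CPM in WT-GS and 132 ± 14.6 CPM in WT-NT (SD, n = 3 and 4), with a log2 change of -0.06 (SE 0.11). The scaffold Eif4g1 had no overlap between groups and did not pass (log2 change -0.12, SE 0.08775, edgeR adjusted p = 0.315), and the related Eif4g3 had a change of -0.20 (SE 0.0946). Eif4g3 did not pass with all libraries but was called lower without WT-NT 2 (log2 change -0.26, edgeR adjusted p = 0.0228). Eif4g2, a relative of the scaffold that lacks the eIF4E-binding part, had 1433, 1369 and 1379 CPM in WT-GS, against 1202, 1239, 1137 and 1144 CPM in WT-NT (log2 change 0.30, SE 0.09005, edgeR adjusted p = 0.03815). Its call was kept in 6 of 15 alternative fits. Eif4a3, best known as a core protein of the exon junction complex on spliced mRNA, had 62.9, 64.2 and 68.85 CPM in WT-GS, against 90.3, 116, 96.6 and 69.6 CPM in WT-NT. Its groups were separate only by a narrow gap to WT-NT 4 (log2 change -0.46, SE 0.173, edgeR adjusted p = 0.0781), and it was called without that library (edgeR adjusted p = 0.00508). Eif4h, a relative of Eif4b, had a change of -0.23 (SE 0.13) with all libraries and -0.34 without WT-NT 4 (edgeR adjusted p = 0.0203). Without WT-NT 2, the highest library of both genes, neither passed. The changes were then -0.32 for Eif4a3 (edgeR adjusted p = 0.12) and -0.14 for Eif4h (edgeR adjusted p = 0.34).

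Of the eIF4E-binding inhibitors, Eif4ebp2 passed the test. It had 33.9, 34.2 and 34.5 CPM in WT-GS, against 56.3, 41.05, 51.5 and 49.9 CPM in WT-NT, with no overlap (log2 change -0.48, SE 0.11, edgeR adjusted p = 0.0146). Eif4ebp1 had 146, 165 and 168 CPM in WT-GS, against 133, 170.3, 129 and 98.65 CPM in WT-NT, and its groups overlapped (log2 change 0.32, SE 0.182, edgeR adjusted p = 0.2065). Without WT-NT 2, its highest library, Eif4ebp1 was called higher (log2 change 0.48, edgeR adjusted p = 0.0428). Eif4ebp3 was scarce, at 5.64 ± 0.666 CPM in WT-GS and 6.13 ± 0.456 CPM in WT-NT (SD, n = 3 and 4). Per kilobase, the level of Eif4ebp1 was 80 ± 5.95 CPM in WT-GS and 66.5 ± 14.7 CPM in WT-NT, and that of Eif4ebp2 was 5.91 ± 0.0476 CPM in WT-GS and 8.59 ± 1.1 CPM in WT-NT. Eif4enif1, which carries eIF4E into the nucleus, had a log2 change of 0.02 (SE 0.0892).

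Of the factors of the last steps, Eif5b, the GTPase that joins the ribosomal subunits, had 189, 202 and 186 CPM in WT-GS, against 254.5, 229, 239.9 and 232 CPM in WT-NT (log2 change -0.25, SE 0.0783, edgeR adjusted p = 0.0413). Its call was kept in 8 of 15 alternative fits. Eif5a, which helps the ribosome through difficult peptide bonds, averaged 564 ± 12.6 CPM in WT-GS and 694 ± 143 CPM in WT-NT (SD, n = 3 and 4). Eif6, which keeps the large subunit from joining too early, averaged 70.2 ± 3.52 CPM in WT-GS and 86.2 ± 18.8 CPM in WT-NT. Neither passed with all libraries, with log2 changes of -0.24 (Eif5a, SE 0.175) and -0.24 (Eif6, SE 0.178), and WT-NT 4 was below every starved library in both. Without WT-NT 4 both were called, at -0.39 for Eif5a (edgeR adjusted p = 0.0318) and -0.38 for Eif6 (edgeR adjusted p = 0.0406). WT-NT 2 was the highest library in both. Without it the changes were -0.11 for Eif5a (edgeR adjusted p = 0.576) and -0.08 for Eif6 (edgeR adjusted p = 0.645), so both depend on single libraries. Eif5a2, the paralogue of Eif5a, had a change of 0.31 (SE 0.116). It did not pass with all libraries but was called higher without WT-NT 4 (log2 change 0.34, edgeR adjusted p = 0.0429).

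Summed levels of cell type markers were compared between the media in wild type without a test. The 15 of 16 macrophage markers in the table summed to 14.1 to 381 CPM in WT-GS, against 329 to 2187 CPM in WT-NT, none of them at 0 in all libraries, and the groups overlapped, with WT-GS 1 above WT-NT 2. The fibroblast markers summed to 24170 to 26100 CPM in WT-GS, against 43180 to 50670 CPM in WT-NT, and these groups did not overlap. The ranges overlapped for 15 skeletal muscle markers (97.2 to 250.2 CPM in WT-GS and 85.7 to 146 CPM in WT-NT), 7 epithelial markers (4.34 to 10.3 CPM in WT-GS and 5.03 to 12.7 CPM in WT-NT) and 4 endothelial markers (14.7 to 19.5 CPM in WT-GS and 5.57 to 18.4 CPM in WT-NT). Their part in the member changes was not tested. In bulk RNA, fewer cells of a type and less RNA per cell cannot be told apart.

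Lists of genes around the initiation factors were counted in the same fit, where 17.2% of all genes were higher and 15.4% lower. Of 10 genes of eIF2 signalling, 5 rose and 1 fell. Ddit3, the stress transcription factor CHOP, averaged 492 ± 89.55 CPM in WT-GS and 90.3 ± 14.1 CPM in WT-NT (log2 change 2.51, SE 0.1595). Ppp1r15a, which directs dephosphorylation of eIF2, averaged 251 ± 5.67 CPM in WT-GS and 78.6 ± 18.9 CPM in WT-NT (log2 change 1.73, SE 0.196). The eIF2 kinases Eif2ak3, of the endoplasmic reticulum, and Eif2ak4, which senses amino acids, changed by 0.85 (SE 0.139) and -0.37 (SE 0.101). Atf4 had a log2 change of 0.31 and did not pass the test (SE 0.147, edgeR adjusted p = 0.144). Of 20 regulators of cap binding and scanning, 4 rose and 4 fell, which is near the share over all genes in each direction. Mknk2, a kinase of eIF4E, averaged 24.4 ± 0.581 CPM in WT-GS and 66.1 ± 4.01 CPM in WT-NT (log2 change -1.38). Pabpc1, the poly(A)-binding protein that contacts eIF4G, changed by 0.72, its inhibitor Paip2b by 0.68 and the S6 kinase Rps6kb1 by -0.56. Of 13 tested genes of elongation, termination and recycling, 7 rose and none fell. Among them Eef1e1, a component of the tRNA synthetase complex, changed by 1.11, the translocation factor Eef2 by 0.70, the tRNA carrier Eef1a1 by 0.58 and Dhps, which modifies eIF5A, by 0.46.

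In SirT7-/- cells with all 7 libraries as labelled, edgeR called no member for starvation (smallest adjusted p = 0.304) and 0% of all genes, and 6 members had an unadjusted p under 0.05. DESeq2 called 3, all lower: Eif4h, Eif6 and Eif4a3. It called 3.17% of all genes lower, over the 14094 genes with an adjusted p. The median log2 change was 0.0016 over the members and 0.02 over all genes. Eif4g2 had all KO-GS libraries above all KO-NT libraries, and Eif1ad, Eif3g, Eif4a3, Eif4h and Eif6 had them all below (2.13% and 10.6% of members, against 5.94% and 6.45% of all genes). Eif6 had 70.6, 65.9 and 68.9 CPM in KO-GS, against 99.7, 98.5, 104.5 and 82.1 CPM in KO-NT (log2 change -0.51, SE 0.1065, edgeR adjusted p = 0.304). Without KO-NT 4 alone, 4 members were called, all lower: Eif6, Eif4a3, Eif4h and Eif5a. The same fit called 6.35% of all genes lower. No member was called when any other single library was left out.

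KO-GS 3 and KO-NT 4 lay against their medium in the members as they did in Hspa5. Eif4b had 985, 840 and 425 CPM in KO-GS, against 434, 427, 421.5 and 969 CPM in KO-NT. Eif2a had 135, 109 and 67.7 CPM in KO-GS, against 64.8, 58.35, 60.2 and 127 CPM in KO-NT. In both genes KO-GS 3 stood with the normal-medium libraries, and KO-NT 4 with the starved ones. Of the 19 members called in wild type, KO-GS 3 was nearer on the log scale to the WT-GS mean for 1 and to the WT-NT mean for 18, and KO-NT 4 was nearer to the WT-GS mean for 18 and to the WT-NT mean for 1. KO-GS 1 and KO-GS 2 were nearer to the WT-GS mean for 17 and 19 of the 19, and KO-NT 1, KO-NT 2 and KO-NT 3 for 0, 1 and 1. The 19 were picked because they differ between the media in wild type, and they share libraries, so they are not separate observations. The same count was not made over all genes, so it is not a result about the members.

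**Figure D3:**
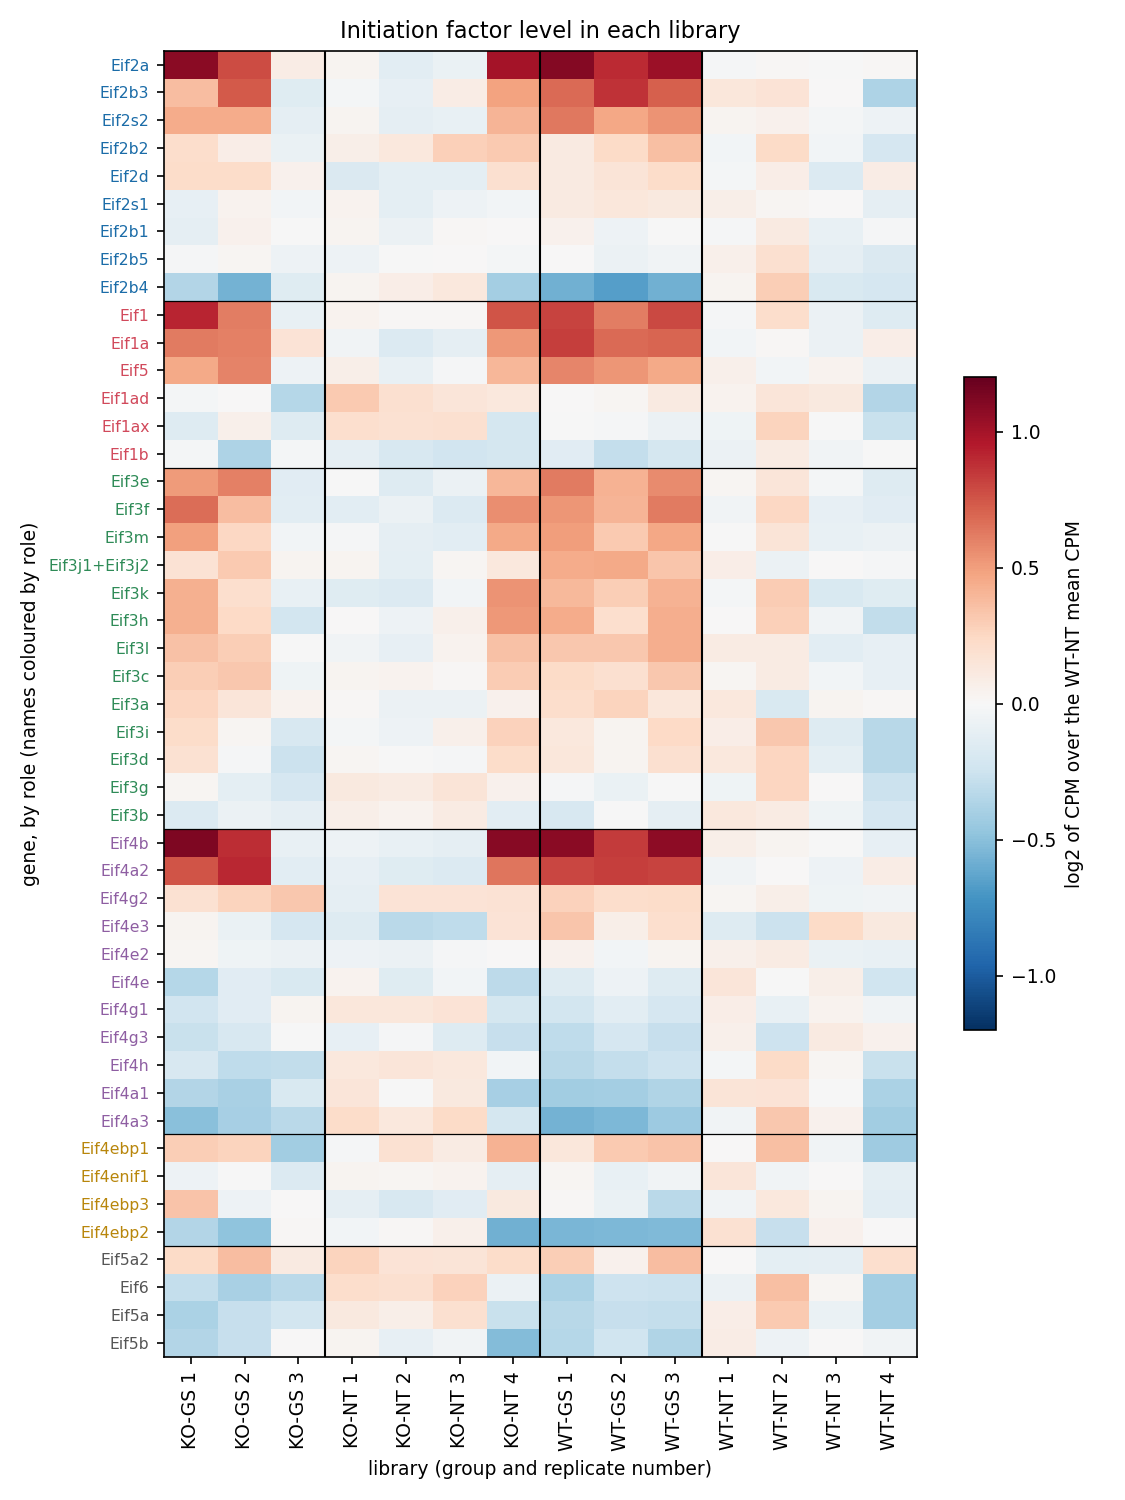
Level of the 47 tested members (vertical, by role) in each library (horizontal, by group), as log2 of CPM over the WT-NT mean, red higher and blue lower. For most of the strongly coloured genes KO-NT 4 has the colour of the starved libraries, as with 969 CPM of Eif4b, and KO-GS 3 that of the normal-medium libraries, with 425 CPM.

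**Figure D4:**
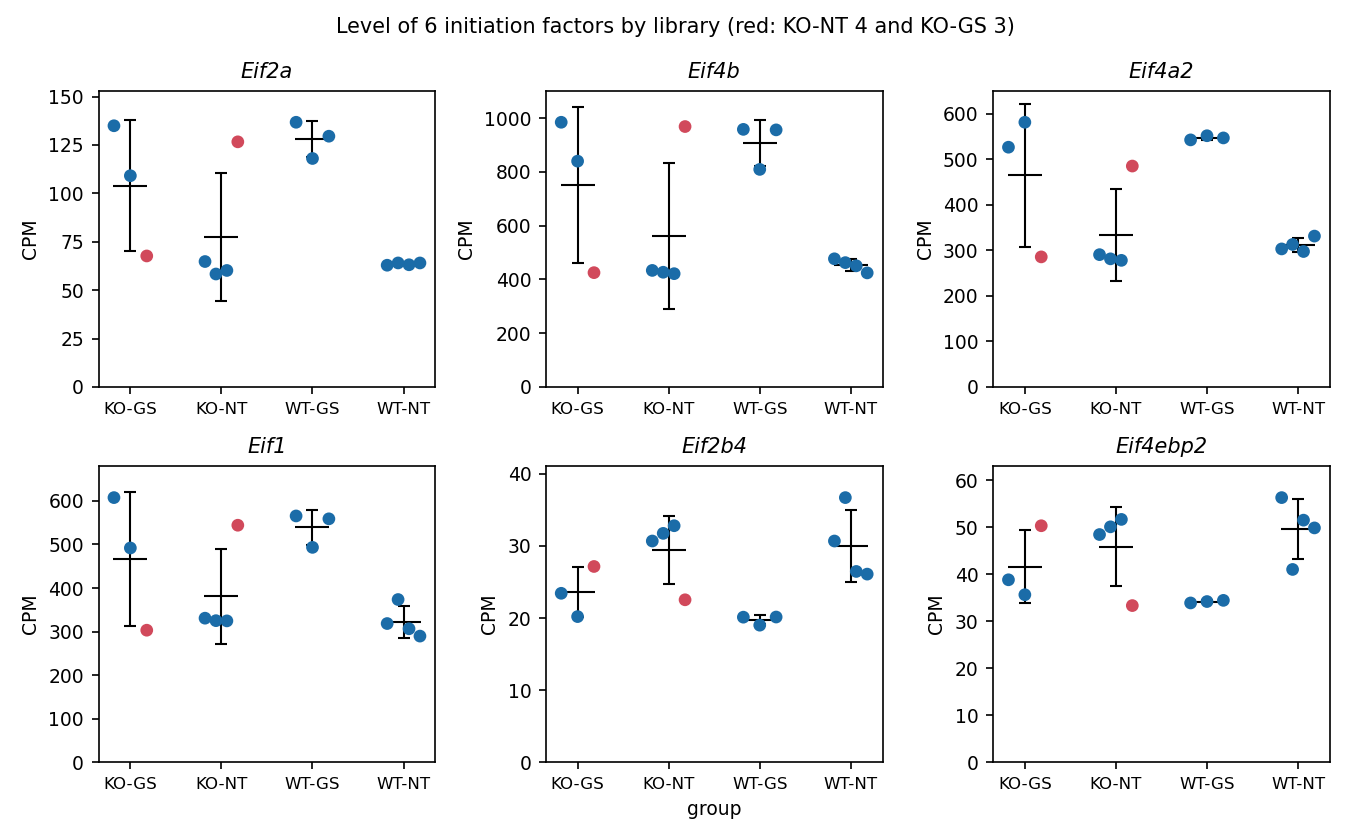
CPM of Eif2a, Eif4b, Eif4a2, Eif1, Eif2b4 and Eif4ebp2 in each library by group, with the group mean and SD in black. The red points are KO-GS 3 and KO-NT 4, each of which is the extreme library of its group, on the side of the other medium, in all 6 panels.

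Without KO-GS 3 and KO-NT 4, the KO-GS over KO-NT comparison called 26 members, 16 higher (34%) and 10 lower (21.3%), against 20.1% of all genes higher, 18.3% lower and 38.4% in either direction. The libraries were left out because starvation genes place them with the other medium, so this count is partly set by that choice. Groups did not overlap for 22 members higher (46.8%, against 33.8% of all genes) and 15 lower (31.9%, against 30.2%). Eif4b averaged 912 ± 102 CPM in KO-GS 1 and 2 and 427 ± 6.05 CPM in KO-NT 1 to 3 (SD, n = 2 and 3; log2 change 1.07, SE 0.0817, edgeR adjusted p = 0.00169). Eif2a changed by 0.97 (SE 0.0952) and Eif4a2 by 0.95 (SE 0.0804), and 7 of 13 eIF3 subunits were higher and none lower. This comparison and that in wild type share no library, but leaving out libraries by their starvation genes also favours agreement between them. Of the 16 members called higher in wild type, 14 were also called higher here (87.5% of each list), and all 3 called lower in wild type were among the 10 called lower here. The same overlap was not counted over all genes. Eif2d and Eif3h were called higher in SirT7-/- cells and not in wild type, and Eif4g2 and the Eif3j sum the other way round. Of the neighbouring genes, 5 of eIF2 signalling were higher and 1 lower, as were 6 and 5 of the cap and scanning regulators and 6 and 1 of elongation and termination, in the fit that called 20.1% of all genes higher and 18.3% lower.

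The members called lower in SirT7-/- cells without those libraries, and not in wild type, were Eif1ad, Eif4a1, Eif4a3, Eif4g1, Eif4h, Eif5a and Eif6. Eif4a3 had 65.7 and 70.7 CPM in KO-GS 1 and 2, against 108.5, 102 and 109 CPM in KO-NT 1 to 3 (log2 change -0.66, SE 0.0744, edgeR adjusted p = 0.00336). Its change in wild type was -0.46 (SE 0.173). Eif6 changed by -0.59 (SE 0.0614) in SirT7-/- cells, and had -0.24 (SE 0.178) in wild type. Eif1ad, a relative of eIF1A that acts in ribosome assembly in human cells, changed by -0.26 (SE 0.0752) in SirT7-/- cells and had 0.10 (SE 0.139) in wild type. The test of the difference between the genotypes, without the same libraries, called no member (edgeR smallest adjusted p = 0.9999) and 0% of all genes, and no member had an unadjusted p under 0.05. A difference between the genotypes is therefore not shown for these genes.

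**Figure D5:**
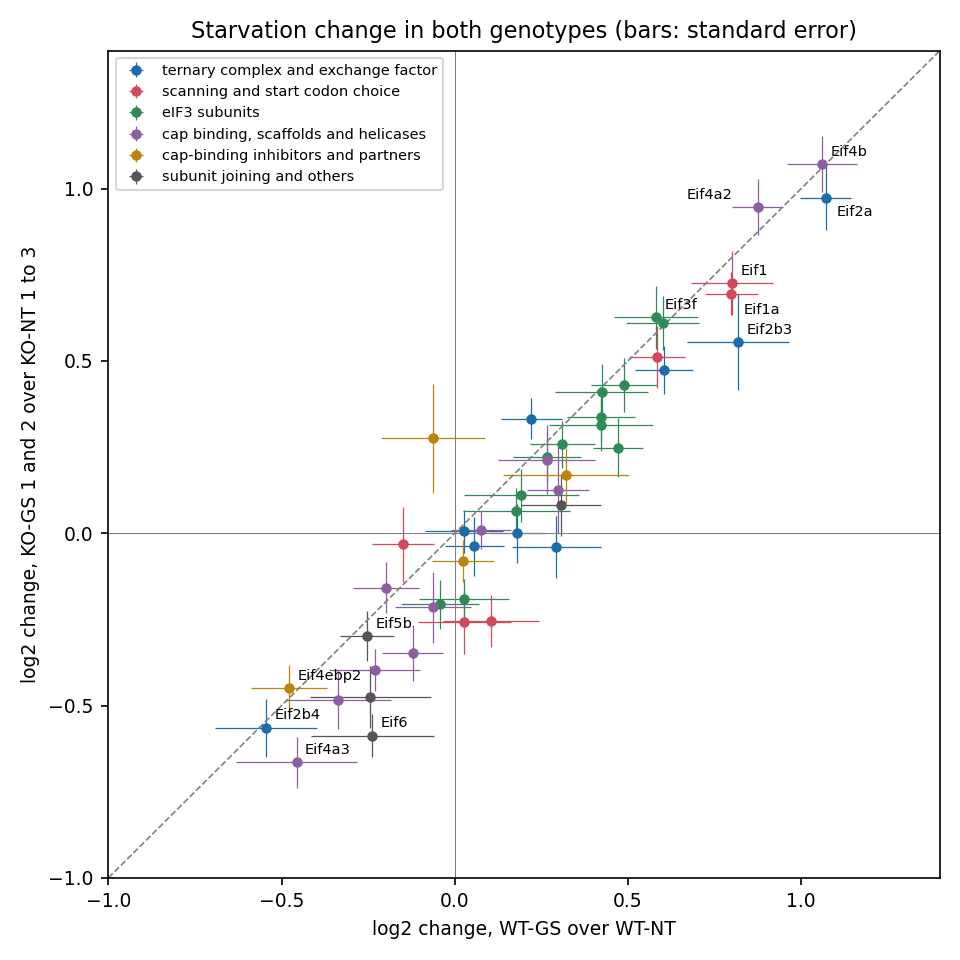
Log2 change with starvation in SirT7-/- cells without KO-GS 3 and KO-NT 4 (vertical axis) and in wild-type cells (horizontal axis) for the 47 tested members, with standard errors and the line of equal change. Eif4b, Eif2a and Eif4a2 are the 3 highest on both axes, and Eif2b4 and Eif4ebp2 are low on both.

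Loss of SirT7 called no member in either medium. In normal medium, KO-NT over WT-NT, Sirt7 was the only gene called by edgeR (log2 change -4.19, SE 0.308), which is 0.00638% of all genes, and no member had an unadjusted p under 0.05. DESeq2 called no member. Member log2 changes ran from -0.16 (Eif1b) to 0.33 (Eif4b, which had -0.05 without KO-NT 4), with standard errors of 0.081 to 0.271. Eif1b had 25.9, 24.3, 23.7 and 24.1 CPM in KO-NT, against 26.6, 29.9, 27.1 and 27.8 CPM in WT-NT (log2 change -0.16, SE 0.0865, edgeR adjusted p = 0.9997). It was the member whose groups did not overlap (2.13%, against 2.21% of all genes lower and 1.07% higher). All 13 eIF3 subunits had a change above 0, as did 36 of all 47 members and 7928 of all 15665 genes. With scaling by library size alone, 12 subunits did. The median of the 13 was 0.09, against 0.0027 over all genes. Without KO-GS 3 and KO-NT 4, 8 of the 13, 29 of 47 members and 7531 of 15665 genes were above 0. No member was called, and 0.0319% of all genes were (0.0128% higher and 0.0192% lower). Eif1b then had -0.14 (SE 0.07955, edgeR adjusted p = 0.785). It and Eif4a2 had all KO-NT libraries below all WT-NT libraries, and Eif1ad and Eif4g1 had them above (4.255% of members each way, against 6.39% of all genes lower and 3.37% higher).

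In medium without glucose, KO-GS over WT-GS, Sirt7 was again the only gene called (0.00638%; log2 change -5.51, SE 0.222). Eif4e3 and the Eif3j sum had an unadjusted p under 0.05, and DESeq2 called no member. Member log2 changes ran from -0.43 (Eif2b3) to 0.23 (Eif4ebp2), with standard errors of 0.0723 to 0.312. The Eif3j sum was 70.6, 77.8 and 63.9 CPM in KO-GS, against 84.8, 85.7 and 78.8 CPM in WT-GS, with no overlap (log2 change -0.28, SE 0.106, edgeR adjusted p = 0.811, or -0.20 and 0.9999 without KO-GS 3). Eif2s1 had 142, 156 and 148.5 CPM in KO-GS, against 163.5, 166 and 164.5 CPM in WT-GS and no overlap (log2 change -0.19, SE 0.0846, edgeR adjusted p = 0.811). In all, 2 members had every KO-GS library above and 6 had every KO-GS library below the WT-GS libraries (4.255% and 12.8%, against 7.18% and 3.64% of all genes). All 13 eIF3 subunits had a change below 0, with a median of -0.19, against 0.009 over all genes. A change below 0 was also found for 38 of all 47 members and for 7590 of all 15665 genes, so it was not particular to eIF3. Without KO-GS 3 and KO-NT 4, 12 of 13 subunits (median -0.05), 38 of 47 members and 7581 of 15665 genes were below 0. No member was called, and 0.0255% of all genes were (0.00638% higher and 0.0192% lower). Eif2s1 then had -0.18 (SE 0.08125, edgeR adjusted p = 0.9999), Eif2b3 -0.22 and Eif4ebp2 0.09. Members whose groups did not overlap were again 2 higher and 6 lower, against 10.7% of all genes higher and 5.9% lower.

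The difference between the genotypes' starvation responses, SirT7-/- minus wild type over all 14 libraries, called no member and 0% of all genes. It uses the same libraries as the comparisons above. The Eif3j sum, Eif2b2 and Eif1ad had an unadjusted p under 0.05, with differences of -0.32, -0.43 and -0.43 on the log2 scale (edgeR adjusted p = 0.68 for each). Without KO-GS 3 and KO-NT 4 they were -0.20, -0.31 and -0.34 (edgeR adjusted p = 0.9999 for each). The median over the members was -0.23 with all libraries and -0.08 without KO-GS 3 and KO-NT 4, against 0.01 and 0.02 over all genes. The standard errors were 0.101 to 0.433 with all libraries and 0.0994 to 0.246 without the pair.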

How the data were processed

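RNA from 14 libraries was analysed per gene. Per the submitters' processing notes, FastQC 0.11.3, Trimmomatic 0.36, HISAT2 2.1.0, SAMtools, StringTie 1.3.3 and DESeq2 1.18.1 were used with build mm9. The annotation and strand setting are not given in the sources used here. The values the authors deposited are estimated counts in whole numbers, and they were used as they stand.

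Comparisons were fitted over all genes with edgeR 4.0.16 in R 4.3.3 (TMM, robust quasi-likelihood F-test, Benjamini-Hochberg adjustment over the 15665 genes left by filterByExpr with a minimum count of 10 and a minimum total of 15). Calls needed an adjusted p below 0.05. Each pairwise fit held the groups compared, and the difference between genotypes all 14 libraries. The SE was worked back from the F-test. The procedure was run on simulated counts with the same dispersion for every gene and no library lying with the other medium. It therefore does not speak to the SirT7-/- comparisons with all libraries. Because the spread was the same for every gene, it does not measure the error of the calls in the other comparisons either. Alternatives were DESeq2 1.42.0, RLE or library-size scaling, other filters (none, or at least 1 CPM with a mean count of 50), a replicate block, a joint fit, Eif3j1 and Eif3j2 apart, each library left out, and KO-GS 3 and KO-NT 4 left out. Any member could be named, and of each pathway list up to 4 genes with the smallest p in wild type. Atf4 was added after its value was seen. Members, lists and tests were chosen with earlier results of these data known.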

Additional observations from a re-analysis of the deposited data

Results flagged for a closer look

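In the groups of 4 libraries, a library was singled out where its gap to the nearest of the others, as a share of the group's range, exceeded Dixon's critical value. This happened in 17 of 94 cases, and 15 of the 17 were KO-NT 4. Chance gives about 1 in 20 for a single case, but the cases share libraries, so a single library can flag many genes. The share flagged over all genes was not counted, so the count is not a result about the members. The high values in KO-NT 4 were Eif2d (47.5 CPM, others 36.9 to 38.4), Eif2a (127 CPM, others 58.35 to 64.8), Eif4b (969 CPM, others 421.5 to 434), Eif1a (341 CPM, others 212 to 230.4), Eif3k (167 CPM, others 103 to 113), Eif3m (171 CPM, others 114 to 124), Eif3c (609 CPM, others 498 to 507), Eif3d (219.8 CPM, others 186 to 191), Eif3f (212 CPM, others 128 to 136), Eif1 (544 CPM, others 325 to 331) and Eif4a2 (485.5 CPM, others 278 to 291). The low values in KO-NT 4 were Eif4h (301 CPM, others 337 to 341), Eif1ax (66.8 CPM, others 88.2 to 89), Eif4g1 (727 CPM, others 925 to 944) and Eif4enif1 (75.2 CPM, others 82.4 to 83.3). The other cases were Eif4g2 (1099 CPM, others 1320 to 1331) in KO-NT 1 and Eif4g3 (167 CPM, others 205.5 to 213) in WT-NT 2.

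Eif1ad was singled out because every KO-GS library was below the KO-NT mean and every WT-GS library above the WT-NT mean. Opposite changes are not shown. The log2 change with all libraries was -0.33 in SirT7-/- cells (SE 0.114, edgeR adjusted p = 0.324) and 0.10 in wild type (SE 0.139, edgeR adjusted p = 0.586), and neither passed the test. The wild-type value was -0.03 without WT-NT 4 (edgeR adjusted p = 0.776). The difference between the responses, SirT7-/- minus wild type, was -0.43 on the log2 scale (SE 0.179, edgeR adjusted p = 0.68) and did not pass the test, and without KO-GS 3 and KO-NT 4 it was -0.34 (SE 0.186, edgeR adjusted p = 0.9999).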

How the results depend on the processing

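Of the 19 members called for starvation in wild type, all kept their direction in every alternative run, and 12 kept their call in all. Of 15 alternatives, the call was kept in 5 for Eif3k, in 6 for Eif3c and for Eif4g2, and in 8 for Eif5b. It was kept in 11 for Eif2b4 and in 12 for Eif3l and for Eif4ebp2. The count ran from 12 to 24 when 1 library was left out, and calls over all genes were not counted in those fits. For SirT7-/- starvation the count of 0 was 3 with DESeq2, 26 without both KO-GS 3 and KO-NT 4, and 0 to 4 with 1 library left out. For SirT7 loss in either medium, and for the difference between the genotypes, it was 0 in every alternative. Scaling by library size alone moved the wild-type median of all genes to -0.08, against -0.02 with TMM, and left 28 of 47 members above 0, against 33.

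Pairing of the libraries by replicate number was not clear. Deviations of same-numbered libraries correlated between -0.121 and 0.455, with at least 1 value under 0.1 in each comparison. KO-GS 3 and KO-NT 4 bear on the deviations in SirT7-/- cells, so this check cannot exclude pairing. With the replicate number as a block, 17 members were called in wild type (12 higher, 5 lower), with 4 eIF3 subunits in place of 7, and 0 in the other comparisons. WT-GS has no replicate 4, so the block takes up WT-NT 4 and that library does not bear on the estimated wild-type change. The limit given for a count of 0 covers counting error only.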
